A study of Homo sapiens with 4 samples.

Results

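AluS regions are stranded stretches of the human genome whose repeat annotation, on their own strand, holds no name outside the AluS subfamilies. They numbered 162778 of the 3814162 regions counted in RNA bound by the antibody J2, which recognises double-stranded RNA (dsRNA), and 80882 of the 2310971 regions counted in total RNA (Input). The members were chosen by repeat name and not by any measured value. The cells were NCI-H1944, an established human lung adenocarcinoma line that the labels call wild type, and all groups came from this 1 line. The MPS1i groups received 100 nM BAY-1217389, an inhibitor of the spindle checkpoint kinase MPS1, for 48 h and then 24 h without drug. The DMSO groups received the solvent on the same schedule. Each of the 4 groups, MPS1i J2, DMSO J2, MPS1i Input and DMSO Input, held 1 library. No difference below therefore has a replicate check, no p-value was computed, and each ratio compares libraries and not conditions.

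Alu elements are short primate retrotransposons derived from the 7SL RNA of the signal recognition particle, and AluS is the subfamily group of intermediate age, younger than AluJ and older than AluY. Most copies are silent passengers in introns and between genes, where they are read as parts of longer transcripts. Neighbouring copies on opposite strands give an RNA that can fold back on itself into a long duplex. Such duplexes are edited by ADAR1 and, when unedited, can be bound by the cytoplasmic sensor MDA5.

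The repeat label could be checked against the detailed annotation that the authors' table carries from HOMER, the annotation program. AluS was also named there for 77.4% of the members of the J2 table and 73.7% of those of the Input table, and the rest had other entries. A single subfamily name was carried by 98.5% of the members of either table. The median length was 97 bp in the J2 table and 100 bp in the Input table, so that most regions hold only a piece of an element. No read was found in either library for 42.6% of the members of the J2 table and 41.1% of those of the Input table. Regions longer than 400 bp numbered 5774 and held 56.1% of the AluS counts of J2, and 2402 held 32.3% of those of Input.

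Summed over all regions, the libraries held 6697479 counts for MPS1i J2, 9793355 for DMSO J2, 4844956 for MPS1i Input and 6381610 for DMSO Input. Counts below are scaled to these sums as CPM, the usual unit of relative abundance, and bracketed ranges are exact (Clopper-Pearson) 95% intervals that cover counting error only. Mitochondrial RNA took 0.836% of MPS1i J2 and 0.608% of DMSO J2, against 20.2% of MPS1i Input and 24.3% of DMSO Input. Marker regions of the labelled cell type were read, with 8 lung epithelial markers at a summed 944 CPM in MPS1i Input and 638 CPM in DMSO Input, and at 108 CPM in MPS1i J2 and 98.6 CPM in DMSO J2, although NKX2-1, a lung lineage factor, had no Input region. KRT8 alone gave 4154 of these counts in MPS1i Input and 3666 in DMSO Input. EPCAM went the other way, with 1 count in MPS1i Input against 19 in DMSO Input, as did CDH1, with 73 in MPS1i Input against 109 in DMSO Input and 168 in MPS1i J2 against 425 in DMSO J2. The 4 fibroblast markers summed to 17.1 CPM in MPS1i Input against 1.57 CPM in DMSO Input, and to 13.1 CPM in MPS1i J2 against 2.65 CPM in DMSO J2. The 4 leukocyte markers summed to 12.8 CPM in MPS1i Input against 5.48 CPM in DMSO Input, and to 17.6 CPM in MPS1i J2 against 4.70 CPM in DMSO J2. COL1A2 and CD3E had no count in DMSO Input, and COL1A2 had none in DMSO J2. The part of these markers in the results below was not tested. With mitochondrial counts left out of the library sum the AluS log2 ratio was -0.29 in J2 and -0.04 in Input, and with both J2 libraries thinned to equal depth 96 AluS regions were called higher and 436 lower. The matching shares of all J2 regions at equal depth are not given here.

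A set of AluS regions stood apart in both tables. These shared only their end base or bases with an annotated exon on their strand, and they were few, 186 in the J2 table and 100 in the Input table. They held 14.4% of the AluS counts of MPS1i J2 and 11.8% of those of DMSO J2, and 28.8% of those of MPS1i Input against 22.2% of those of DMSO Input. Whether their counts are reads of the neighbouring exon was not tested. Region starts were read as counted from 1, which is how the deposited lengths are made up, and an offset of 1 base would change which regions share an end base. Results that rest on them are given with and without every region sharing an exon base.

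AluS RNA made up a smaller share of the MPS1i J2 library than of the DMSO J2 library. AluS regions held 284039 counts in MPS1i J2, a share of 4.24% [4.23, 4.26], against 509851 counts and 5.21% [5.19, 5.22] in DMSO J2. The log2 ratio was -0.30 [-0.30, -0.29] on the library sum and 0.04 on TMM factors, which move every J2 ratio by 0.34, so the direction of the AluS total in J2 depends on the scaling. Since these are bulk libraries, fewer cells carrying an RNA and less RNA per cell cannot be told apart. Reads fell on 52211 AluS regions in MPS1i J2 and on 63888 in DMSO J2. Scaled to all regions read in each library, this count had a log2 ratio of -0.25 [-0.27, -0.24]. AluJ regions gave -0.37 and AluY regions -0.30 on the library sum, against 0.00 for regions with no repeat name, and the same shift makes the AluY value positive.

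In Input the AluS total differed little. AluS held 150686 counts and 3.11% [3.09, 3.13] of MPS1i Input against 193452 counts and 3.03% [3.02, 3.04] of DMSO Input. The log2 ratio was 0.04 [0.03, 0.05] on the library sum, -0.06 on TMM factors, -0.04 without mitochondrial counts and -0.09 without regions sharing an exon base. The 5 most-read AluS regions held 29.7% of the AluS counts of MPS1i Input and 24.5% of those of DMSO Input, and the ratio without them was -0.06. Fewer AluS regions were read in MPS1i Input, 18619, than in DMSO Input, 36343. Scaled to all regions read in each library, this count had a log2 ratio of -0.0086 [-0.034, 0.017], so the drop was shared by all Input regions.

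The subfamilies moved over a narrow range in J2, and none of the 17 with enough counts passed 2-fold. On the library sum 15 lay below 0 with their interval, 1 lay above, and 1 held 0, whereas on TMM factors 3 lay below and 11 above. AluSx, with the most counts, had 7451 CPM in MPS1i J2 and 9147 CPM in DMSO J2, a log2 ratio of -0.30 [-0.31, -0.28] that TMM factors turn to 0.04. AluSz had 7030 CPM in MPS1i J2 against 8769 CPM in DMSO J2, a ratio of -0.32 that becomes 0.02 on TMM factors, and AluSx1 had 5183 CPM in MPS1i J2 against 6807 CPM in DMSO J2. AluSx1 and AluSz6, at -0.39 and -0.49, were with AluSg4 the 3 whose interval stayed below 0 on TMM factors, at -0.05 and -0.16. The extremes were AluSq4, an infrequent subfamily with 256 counts in MPS1i J2 and 548 in DMSO J2 (-0.55 [-0.77, -0.33]), and AluSc5 (0.08 [0.02, 0.14]). Without regions sharing an exon base AluSc5 stood at -0.37.

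In Input the subfamilies lay closer to 0 and on both sides of it, between -0.26 for AluSz6 and 0.28 for AluSc on the library sum. AluSc had 4540 CPM in MPS1i Input against 3733 CPM in DMSO Input, but without regions sharing an exon base its log2 ratio was -0.18 [-0.24, -0.12]. AluSz likewise had 7683 CPM in MPS1i Input and 6690 CPM in DMSO Input, a ratio of 0.20, and -0.04 without those regions. AluSx4 alone had an interval above 0 without them, at 0.23 [0.13, 0.33], and it stood at 0.13 on TMM factors. Among the regions left out, 1 in TXNRD1 held 3718 CPM of AluSc in MPS1i Input and 2806.5 CPM in DMSO Input. Another, in NQO1, held 3850 CPM of AluSz in MPS1i Input and 2743 CPM in DMSO Input. The plot of subfamilies shows the shift between filled and open marks for AluSc, AluSz and AluSc5.

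**Figure D1:**
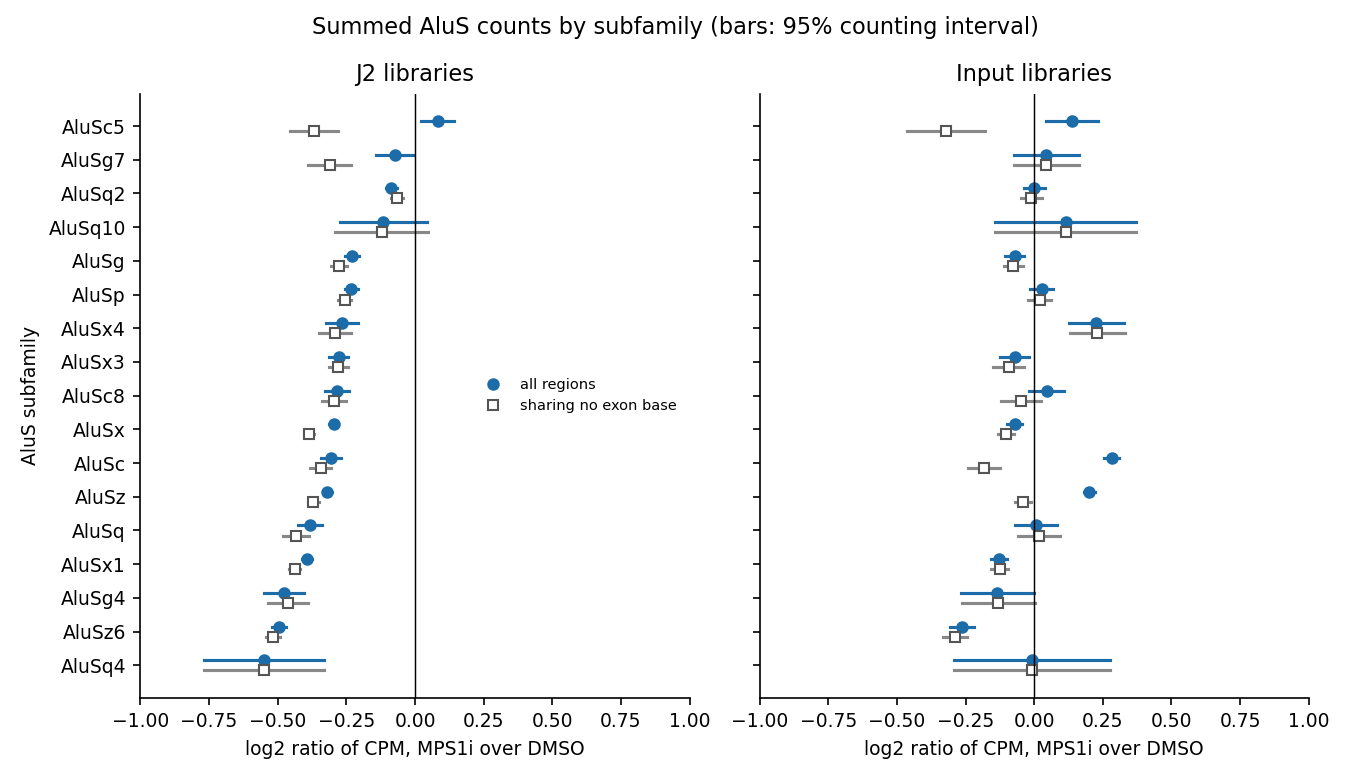
The horizontal axis is the log2 ratio of CPM, MPS1i over DMSO, for the 17 AluS subfamilies in J2 (left) and Input (right), with filled circles for all regions, open squares for those sharing no exon base, and bars for the 95% counting interval. In J2 most subfamilies lie left of 0 on this scaling, whereas on TMM factors (a shift of 0.34) 11 lie above 0, and AluSc5 crosses 0 between its marks.

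HOMER's annotation classes divided the AluS counts more sharply than the subfamilies did. Intron regions held 55.3% of the AluS counts of MPS1i J2 against 66.2% of those of DMSO J2. The 97682 intron regions had 23469 CPM in MPS1i J2 and 34488 CPM in DMSO J2 (-0.56 [-0.56, -0.55]). The 55636 Intergenic regions had 12286 CPM in MPS1i J2 and 11139 CPM in DMSO J2 (0.14 [0.13, 0.15]). Around transcript ends (TTS) the ratio was 0.06, around promoters 0.17 and in the few exon regions 0.13, and the signs of these 3 classes, of introns and of Intergenic regions were the same on TMM factors. The 3′ UTR class (-0.11), the 5′ UTR class (-0.16) and the non-coding exon class (-0.05) changed sign on TMM factors, to 0.22, 0.18 and 0.29. In Input the introns stood at -0.08 and Intergenic regions at 0.37, with TTS at 0.23, promoters at 0.26, exon at 0.61 and 3′ UTR at -0.33, all with the same sign on TMM factors. Without regions sharing an exon base the introns stood at -0.67 in J2 and -0.38 in Input, Intergenic regions at 0.16 in J2 and 0.37 in Input, and the 3′ UTR class at 0.01 in J2 and -0.28 in Input. The same split ran through each of the frequent subfamilies of J2. AluSz introns had -0.49 and AluSz Intergenic regions 0.16, AluSp introns -0.50 and AluSp Intergenic regions 0.36, and AluSx1 introns -0.64 and AluSx1 Intergenic regions 0.14, of which the intron values stayed below 0 after the TMM shift of 0.34.

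Placing each region against GENCODE release 29 genes, with strand, separated AluS RNA in the direction of a gene from the rest. On the gene strand AluS had 28465 CPM in MPS1i J2 against 40337 CPM in DMSO J2 (-0.50 [-0.51, -0.49]). On the opposite strand of a gene it had 3570 CPM in MPS1i J2 against 2998 CPM in DMSO J2 (0.25 [0.23, 0.28]). Outside genes it had 10375 CPM in MPS1i J2 against 8726 CPM in DMSO J2 (0.25 [0.24, 0.26]). None of these signs changed on TMM factors, which gave -0.16, 0.59 and 0.59, or without mitochondrial counts. Input had the same 3 signs, at -0.08, 0.18 and 0.57 on the library sum and -0.18, 0.08 and 0.47 on TMM factors. Without regions sharing an exon base the gene strand stood at -0.63 in J2 and -0.33 in Input.

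In J2 the subfamilies followed this division. On the gene strand 15 of 16 subfamilies with enough J2 counts lay below 0 with their interval, on the opposite strand 9 of 13 lay above, and outside genes 12 of 13 lay above. In Input 11 of 11 lay above 0 outside genes, between 0.45 and 0.78, and 7 of 7 on the opposite strand, whereas on the gene strand 11 of 15 lay below and 3 above, between -0.56 and 0.26. AluSp had 2004 CPM on gene strands in MPS1i J2 against 2836 CPM in DMSO J2, while outside genes it had 870 CPM in MPS1i J2 against 653 CPM in DMSO J2.

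Regions with no repeat name divided the same way, and the plot by place sets the families beside each other. Outside genes, the AluS ratio in J2 was lower than that of regions with no repeat name, a log2 difference of -0.43 [-0.44, -0.41], and on the opposite strand the difference was -0.45 [-0.48, -0.43]. On the gene strand, without regions sharing an exon base, it was -0.23 [-0.24, -0.22]. These differences do not depend on how the libraries are scaled. Against AluJ, the AluS ratio was higher on the gene strand, by 0.15 [0.14, 0.17], and lower on the opposite strand, at -0.22 [-0.27, -0.18], and outside genes, at -0.08 [-0.11, -0.06]. Against AluY it was higher outside genes, by 0.21 [0.17, 0.24], and lower on the gene strand, at -0.06 [-0.09, -0.04], and on the opposite strand, at -0.13 [-0.20, -0.07]. In Input the AluS ratio outside genes differed from that of regions with no repeat name by -0.14 [-0.17, -0.12], and its differences from AluJ, -0.02 [-0.07, 0.02], and AluY, 0.02 [-0.05, 0.08], held 0.

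**Figure D2:**
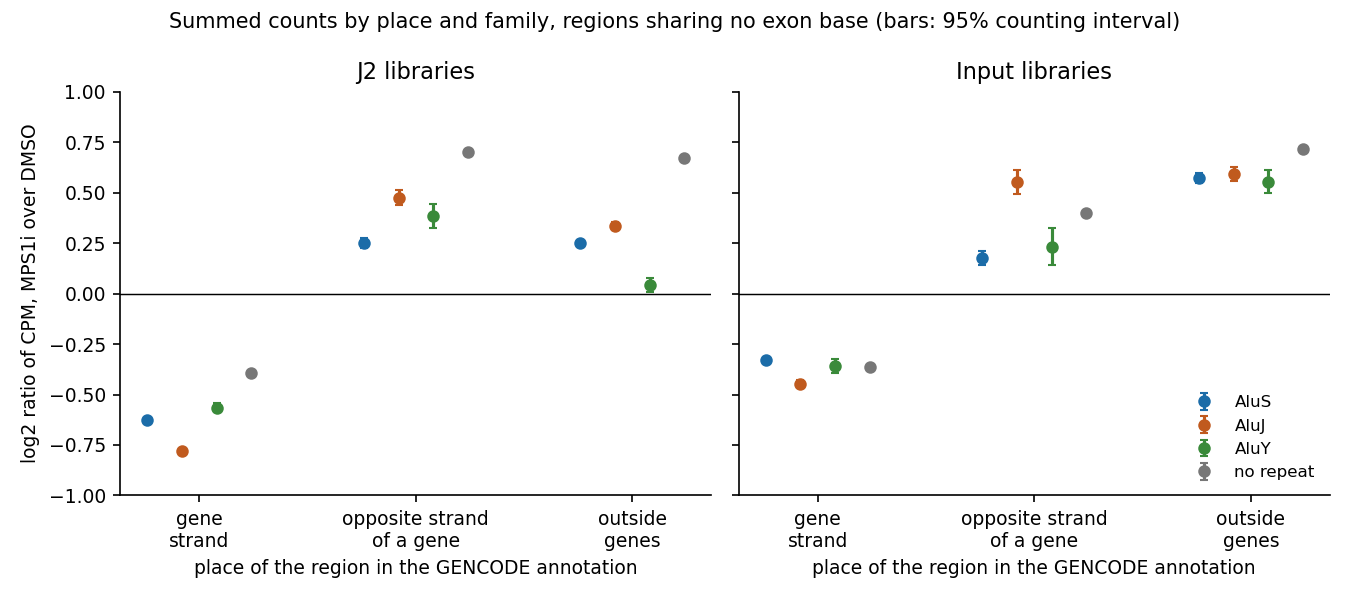
The vertical axis is the log2 ratio of CPM, MPS1i over DMSO, for AluS, AluJ, AluY and regions with no repeat name by place in the annotation, in J2 (left) and Input (right), without regions sharing an exon base and with bars for the 95% counting interval. AluS lies below 0 on gene strands and above 0 elsewhere in both panels, on the library sum and on TMM factors alike, and in J2 below the regions with no repeat name at every place.

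Outside genes the AluS ratio was highest among regions that each had few reads. In J2 outside genes, regions with under 5 counts over both libraries had 2671 CPM in MPS1i J2 against 1291 CPM in DMSO J2 (1.05 [1.02, 1.08]). Those with 5 to 49 counts had a ratio of 0.33 [0.30, 0.36], and those with 50 counts or more -0.04 [-0.06, -0.02], which TMM factors turn positive. Regions with no repeat name showed the same order outside genes, 1.42, 0.53 and 0.12. On gene strands the middle class had the lowest value, -0.84, with -0.42 for regions under 5 counts and -0.36 for those with 50 or more. Input differed in this respect, with its highest AluS value outside genes in the class of 5 to 49 counts, at 1.31 [1.27, 1.36], and its lowest on gene strands in the class under 5 counts, at -1.33 [-1.36, -1.30].

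Off the gene strand, AluS ratios also ran with the distance from the nearest gene end upstream on the same strand. In J2 they were 0.11 up to 2000 bp, 0.18 from there to 10000 bp, 0.44 on to 50000 bp and 0.55 beyond. The matching values of regions with no repeat name were 0.39, 0.50, 0.92 and 0.85. Input AluS regions had 0.32, 0.28, 0.55 and 0.83 over the same distances, and no sign in either table changed on TMM factors.

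Single AluS regions could be compared where both libraries of a table together had at least 50 counts, and a region was called when its ratio was at least 2-fold with an interval excluding 1. Only 1753 members of the J2 table, 1.08%, reached that minimum. Of these, 116 were called higher in MPS1i J2 (6.62%), against 12.5% of all J2 regions, and 621 were called lower (35.4%), against 27.2% of all. On TMM factors the AluS split was 211 higher and 486 lower. These factors shift every J2 region alike, and the matching shares of all J2 regions are not given here. The median log2 ratio was -0.55 for AluS regions and -0.20 for all J2 regions tested. On gene strands 64 were higher and 572 lower among 1328, where all J2 regions gave 8.75% higher and 36.2% lower. On opposite strands 19 were higher and 13 lower among 138 (13.8% and 9.42%), where all J2 regions gave 22.1% higher and 5.93% lower. Outside genes 33 were higher and 36 lower among 287 (11.5% and 12.5%), where all J2 regions gave 18.1% higher and 12.3% lower. The share of AluS called lower outside genes was thus close to that of all regions there, and the drop of this share off the gene strand was common to all regions.

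**Figure D3:**
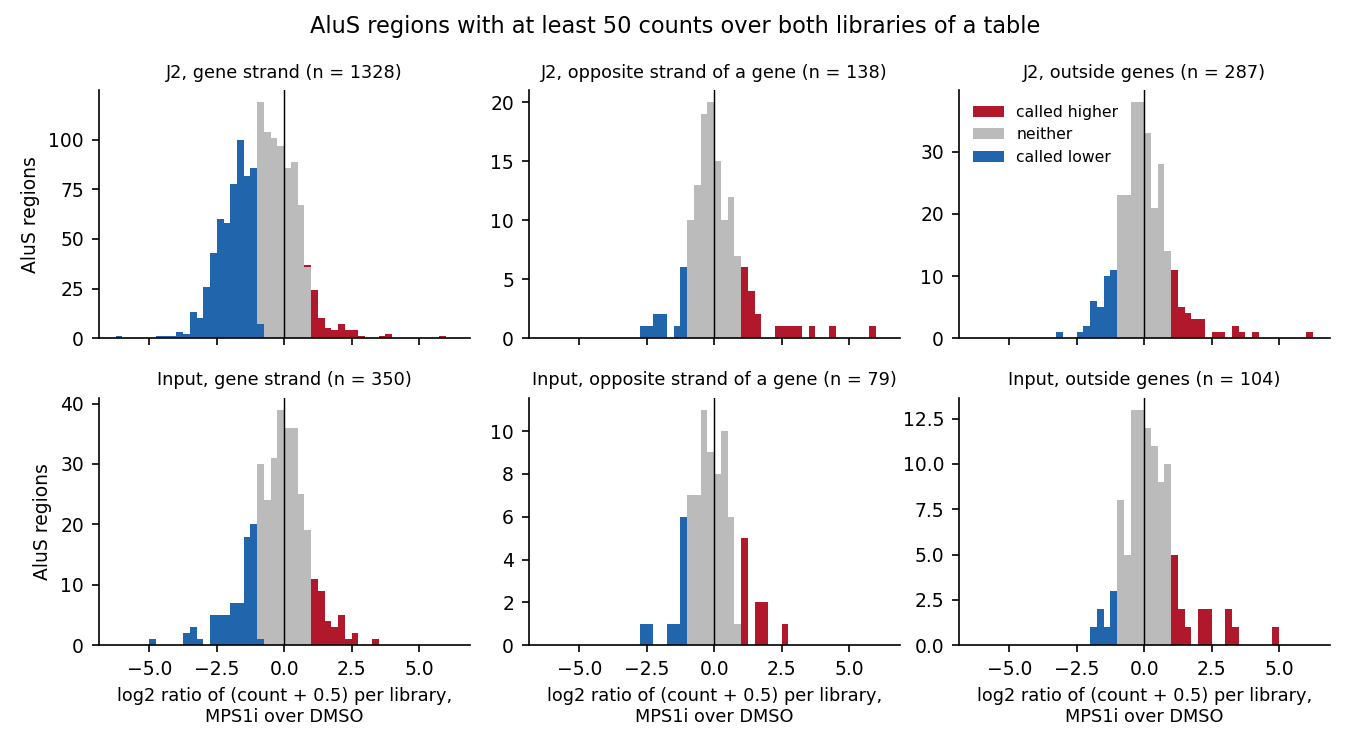
Histograms of the log2 ratio of counts plus 0.5 per library sum, MPS1i over DMSO, of AluS regions with at least 50 counts, by table and place, with the number of regions on the vertical axis and colours for regions called lower, neither and higher. On the library sum the J2 regions of gene strands centre on -0.78, and those outside genes on -0.12, a value whose sign TMM factors turn.

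Of the 5 regions highest in MPS1i J2, 3 lay in or nearest to genes of the interferon list used below. An AluSz region in an intron of DHX58, which encodes the RNA sensor LGP2 (chr17:42102812-42103206, -), had 56 counts in MPS1i J2 against 1 in DMSO J2, a log2 ratio of 6.36 [3.82, 11.7]. An AluSx3 region in the first intron of DDX58, which encodes the sensor RIG-I (chr9:32524720-32525997, -), had 114 counts in MPS1i J2 against 10 in DMSO J2, a ratio of 4.06 [3.13, 5.16]. Both sensors bind dsRNA in the cytoplasm.

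At 8747 bp from the start of IFIT2, an interferon-induced RNA-binding protein gene, an AluSx region (chr10:89310326-89311261, +) had 55 counts in MPS1i J2 against 1 in DMSO J2. It lay on the opposite strand of an annotated gene. An AluSz region on the strand of RMI2, a gene of the Bloom helicase complex (chr16:11317277-11318064, +), had 764 counts in MPS1i J2 against 91 in DMSO J2, 3.62 [3.30, 3.95]. An AluSx1 region outside genes (chr3:141450473-141451398, +), nearest to the Ras regulator gene RASA2, had 68 counts in MPS1i J2 against 1 in DMSO J2.

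All 5 regions lowest in MPS1i J2 were intronic and on a gene strand. An AluSx1 region of ABCC1, a drug efflux pump gene (chr16:16130446-16130875, +), had no count in MPS1i J2 against 59 in DMSO J2. With the count of 0 set to a floor of 3 it was 13.4-fold lower, and its log2 interval ended at -3.41. An AluSg region of PCBP2, a poly(C)-binding protein gene (chr12:53470013-53470378, +), had 12 counts in MPS1i J2 against 204 in DMSO J2, -3.54 [-4.52, -2.70]. An AluSg4 region of RBM5, a splicing regulator gene (chr3:50108722-50109081, +), had 3 counts in MPS1i J2 against 90 in DMSO J2, -4.36 [-6.66, -2.77]. The chromatin remodeller gene SMARCC1 held an AluSz region (chr3:47628816-47629464, -) with 1 count in MPS1i J2 against 51 in DMSO J2. An AluSq10 region of the aldehyde dehydrogenase gene ALDH2 (chr12:111787233-111787688, +), which also overlaps AC002996.1, had 1 count in MPS1i J2 against 49 in DMSO J2.

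The most-read J2 regions differed far less. An AluSz region in the last intron of NQO1, a quinone reductase gene under NRF2 control (chr16:69711281-69711649, -), had 935 CPM in MPS1i J2 and 812 CPM in DMSO J2, 0.20 [0.16, 0.25]. An AluSz region of PTGR1, a prostaglandin reductase gene (chr9:111591549-111592298, -), had 558 CPM in MPS1i J2 against 827 CPM in DMSO J2, -0.57 [-0.63, -0.51]. Both shared only end bases with an exon, as did an AluSx region at the transcript end of NAF1, a gene for box H/ACA particle assembly (chr4:163127115-163128647, -), with 428 CPM in MPS1i J2 against 378 CPM in DMSO J2. An AluSx region of NGRN, a gene for a protein of mitochondrial ribosome assembly (chr15:90275779-90276594, +), which also overlaps AC091167.6, stood at 425 CPM in MPS1i J2 and 429 CPM in DMSO J2. An AluSq2 region outside genes on chromosome 8 (chr8:65594374-65596287, -), 52 bp from an Alu region on the other strand, had 466 CPM in MPS1i J2 against 853 CPM in DMSO J2, -0.87 [-0.93, -0.81]. None of these 5 passed 2-fold, and NGRN, whose interval held 0, is above 0 on TMM factors.

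In Input, 533 members reached 50 counts. Of these, 62 were called higher in MPS1i Input (11.6%), against 16.3% of all Input regions, and 92 lower (17.3%), against 14.4% of all. The median was -0.08 for AluS and 0.07 for all Input regions tested. On gene strands 36 were higher and 75 lower among 350 (10.3% and 21.4%), where all Input regions gave 13.5% higher and 18.2% lower. On opposite strands 10 were higher and 10 lower among 79 (12.7% each), against 17.9% higher and 10.6% lower of all. Outside genes 16 were higher and 7 lower among 104 (15.4% and 6.73%), against 23.2% higher and 7.47% lower of all.

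Of the 5 highest Input regions, 3 lay at a gene's annotated end or start. An AluSp region at the transcript end of FTL, the ferritin light chain gene (chr19:48966900-48967416, +), had 57 counts in MPS1i Input against 2 in DMSO Input. The Input region at RMI2 (chr16:11317454-11318055, +), which overlaps the J2 region named above, had 84 counts in MPS1i Input against 11 in DMSO Input, 3.33 [2.42, 4.39]. An AluSz region at the transcript end of HIST1H4C, a histone H4 gene (chr6:26104351-26104663, +), had 67 in MPS1i Input against 9 in DMSO Input. An AluSz region nearest to SPRTN, a gene for a protease of DNA-protein crosslinks (chr1:231361940-231362795, -), had 60 in MPS1i Input against 7 in DMSO Input. An AluSg7 region in the promoter class of the phosphatase gene CTDSP2 (chr12:57847218-57847561, +) had 52 in MPS1i Input against 7 in DMSO Input.

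The lowest Input regions all lay on gene strands, and none shared an exon base. An AluSx3 region in an intron of RPH3AL, a gene of regulated exocytosis (chr17:324158-324849, -), had 18 counts in MPS1i Input against 253 in DMSO Input, -3.42 [-4.19, -2.73]. An AluSp region in an intron of TXNRD1, the thioredoxin reductase gene (chr12:104337978-104338418, +), had 1 in MPS1i Input against 54 in DMSO Input. TENT4A, a poly(A) polymerase gene (chr5:6724238-6725245, +), had 4 in MPS1i Input against 78 in DMSO Input at an AluSc8 region. CA12, a carbonic anhydrase gene (chr15:63343351-63344281, -), had 6 in MPS1i Input against 85 in DMSO Input, and RCC1L (chr7:75028135-75029361, -) had 11 in MPS1i Input against 123 in DMSO Input.

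The most-read Input regions changed less. The NQO1 intron region (chr16:69711281-69711660, -) had 18652 counts in MPS1i Input against 17502 in DMSO Input, 0.49 [0.46, 0.52]. An AluSc region of another TXNRD1 intron (chr12:104325429-104325656, +) had 18014 counts in MPS1i Input against 17910 in DMSO Input, 0.41 [0.38, 0.44]. Both shared only end bases with an exon, and both are among the 5 regions without which the Input total changes sign. An AluSg region of GCLC, the glutathione synthesis gene (chr6:53559291-53561018, -), which shared no exon base, had 5221 counts in MPS1i Input against 7748 in DMSO Input, -0.17 [-0.22, -0.12]. PTGR1 (chr9:111591594-111592298, -) had 1932 counts in MPS1i Input against 2618 in DMSO Input, and the chromosome 8 region (chr8:65594514-65596258, -) had 799 in MPS1i Input against 1555 in DMSO Input, -0.56 [-0.69, -0.44].

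AluS counts were also summed by the nearest gene in the deposited table, which is the gene with the nearest start and not always the host. In J2, 127 of 2663 nearest genes with at least 50 AluS counts were called higher in MPS1i J2 (4.77%) and 979 lower (36.8%). Summed over all regions, with or without a repeat, 18220 nearest genes had enough counts, of which 25.5% were called higher and 11.9% lower. That set is far wider than the 2663, so the shares do not compare the same genes. In Input 94 of 862 were called higher (10.9%) and 168 lower (19.5%), against 20.2% and 9.07% of the 16981 nearest genes tested over all regions.

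AluS RNA near interferon-stimulated genes was higher in MPS1i J2. Over the 75 listed genes, of which 61 had an AluS region, it summed to 2054 counts in MPS1i J2 against 1026 in DMSO J2, a log2 ratio of 1.55 [1.44, 1.66] and 1.89 on TMM factors. Of the 16 genes with enough counts, 9 were called higher, where 4.77% of all nearest genes were, and none lower. On TMM factors 12 were called higher, where 9.20% of all nearest genes were. The median of the 16 was 1.11, against -0.65 for all nearest genes tested. This list and those below were chosen with earlier results of these data known, so these shares describe the lists and are no independent support. DHX58 (56 counts in MPS1i J2 against 1 in DMSO J2) and IFIT2 (57 against 5) reached the minimum only through MPS1i J2. Over all regions, with or without a repeat, 58 of 68 tested genes of this list were called higher and 1 lower. DDX58 had 160 counts in MPS1i J2 against 12 in DMSO J2 (4.29 [3.44, 5.27]), and 1 region held 72.1% of them. SP110, a nuclear body protein gene, had 101 counts in MPS1i J2 against 10 in DMSO J2 (3.88), and its relative SP100 had 334 in MPS1i J2 against 147 in DMSO J2 (1.73 [1.45, 2.02]).

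EIF2AK2, which encodes the dsRNA-activated kinase PKR, had 222 AluS counts in MPS1i J2 against 153 in DMSO J2 (1.09 [0.78, 1.39]). TRIM5, a gene for a retroviral capsid restriction factor, had 195 in MPS1i J2 against 79 in DMSO J2 (1.85). TRIM14, a gene for an adaptor of antiviral signalling, had 131 in MPS1i J2 against 69 in DMSO J2 (1.47), and PARP12, an ADP-ribosyltransferase gene, had 30 in MPS1i J2 against 20 in DMSO J2 (1.13). DHX58 and IFIT2 complete the 9, and SP100 drew 96.5% of its counts from 1 region. ADAR, which edits Alu duplexes, had 29 counts in MPS1i J2 and 27 in DMSO J2, 0.65 [-0.16, 1.46]. ZNFX1, a helicase gene with an antiviral role, had 24 in MPS1i J2 against 62 in DMSO J2 (-0.82 [-1.57, -0.12]) and was not called.

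AluS RNA near genes of mitosis and DNA replication was lower in MPS1i J2. It summed to 1080 counts in MPS1i J2 against 3222 in DMSO J2 over the 74 of 81 listed genes with an AluS region, -1.03 [-1.13, -0.93] and -0.69 on TMM factors. Of 21 genes with enough counts, none was called higher and 11 lower, where 36.8% of all nearest genes were called lower, and their median was -1.12 against -0.65. On TMM factors 8 of the 21 were called lower (38.1%), against 25.2% of all, and CENPO, KIF23 and POLE2 lay inside 2-fold. Over all regions, 1 of 73 tested genes of this list was called higher and 28 lower. BUB1B, a spindle checkpoint kinase gene, had 5 counts in MPS1i J2 against 67 in DMSO J2 (-3.20 [-4.86, -1.90]). HELLS, a chromatin remodeller gene of replicating cells, had 14 in MPS1i J2 against 121 in DMSO J2 (-2.56). BRCA1, a gene of homologous recombination, had 13 in MPS1i J2 against 76 in DMSO J2. Of the replication origin genes, ORC1 had 7 in MPS1i J2 against 56 in DMSO J2, and CDC6 had 8 in MPS1i J2 against 62 in DMSO J2.

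CENPO, a centromere protein gene, contributed 392 of the MPS1i J2 counts and 1268 of the DMSO J2 counts of this list, 97.8% of them from 1 region (-1.15 [-1.31, -0.98]), and the list without it summed to -0.96 [-1.09, -0.83]. The remaining genes called lower were RRM2, a ribonucleotide reductase subunit, POLE2, a polymerase subunit, FANCA of crosslink repair, KIF23 of cytokinesis and CENPF of the kinetochore, between -1.73 for FANCA and -1.12 for KIF23. CDK1, the mitotic kinase gene, had 90 in MPS1i J2 against 154 in DMSO J2 and was not called.

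Both other lists had few genes with enough AluS counts. Near p53 targets the sum was 927 counts in MPS1i J2 against 1362 in DMSO J2, -0.01 [-0.13, 0.11] on the library sum, 0.33 on TMM factors and 0.26 [0.10, 0.42] on the library sum without MDM2, its most-read gene. BBC3, the gene of the apoptosis inducer PUMA, was called higher among 5 tested, where 4.77% of all nearest genes were. It had 37 in MPS1i J2 against 14 in DMSO J2 (1.95). Near housekeeping genes the sum was 383 in MPS1i J2 against 694 in DMSO J2, -0.31 [-0.49, -0.13], or 0.03 on TMM factors. Of 6 tested, 2 were called lower, where 36.8% of all nearest genes were. On TMM factors 1 was, where 25.2% of all were, so these calls were near or below the general share. GAPDH, the glycolysis gene, had 33 in MPS1i J2 against 158 in DMSO J2, of which 1 region held 98.4%. The plot of listed genes shows how the interferon and the mitosis genes are spread around 0.

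**Figure D4:**
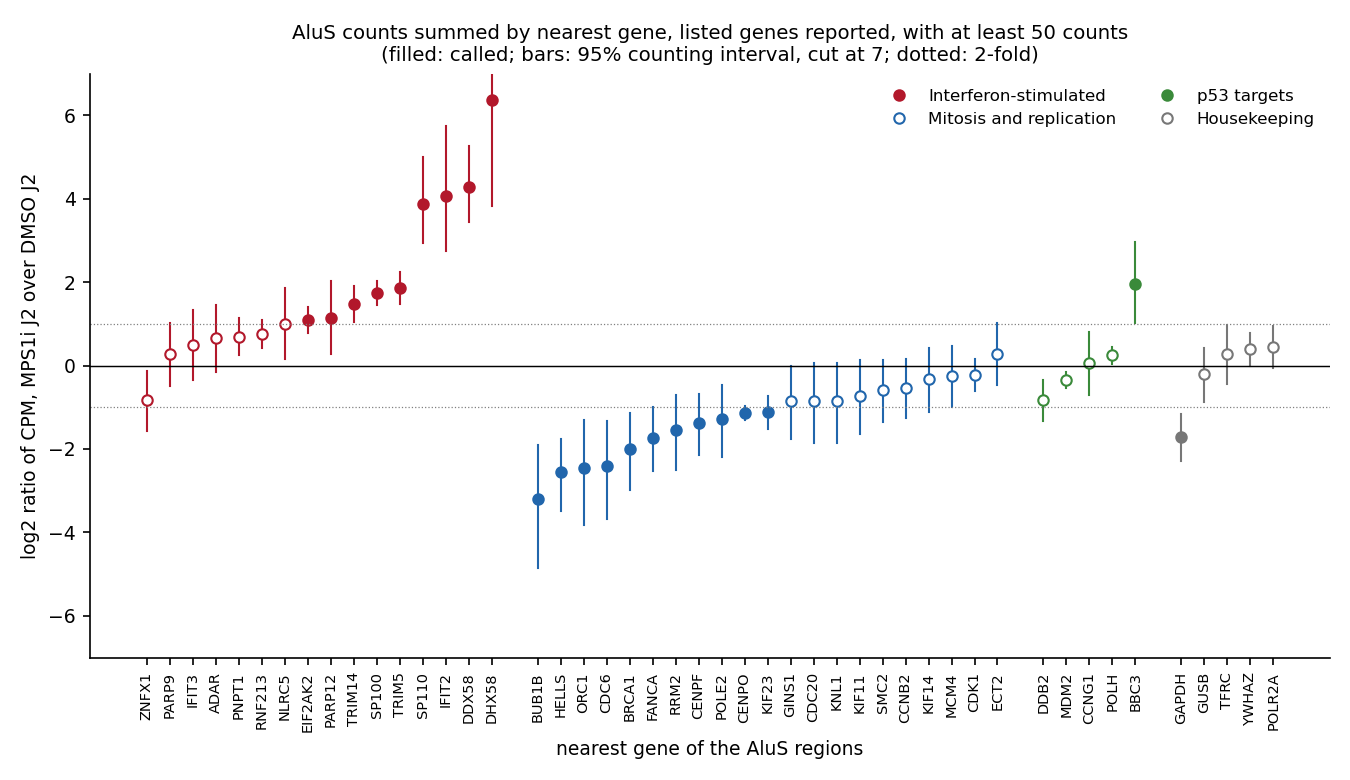
The vertical axis is the log2 ratio of CPM, MPS1i J2 over DMSO J2, of AluS counts summed by nearest gene for the listed genes with at least 50 counts (5 of the 6 housekeeping genes), coloured by list, with filled marks for called genes and bars for the 95% counting interval, cut off at the axis limit. Interferon-stimulated genes reach from -0.82 (ZNFX1) to 6.36 (DHX58), and genes of mitosis and replication from -3.20 (BUB1B) to 0.29 (ECT2).

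Input had the same signs for the sums of the first pair of lists, with fewer genes. Of all nearest genes tested in Input, 10.9% were called higher and 19.5% lower. Interferon-stimulated genes had 747 AluS counts in MPS1i Input against 319 in DMSO Input, 1.62 [1.43, 1.82]. Of 3 tested, 2 were called higher. PARP9, an ADP-ribosyltransferase gene, had 49 in MPS1i Input against 8 in DMSO Input, and SP100 had 85 in MPS1i Input against 20 in DMSO Input. Mitosis and replication genes had 524 in MPS1i Input against 1205 in DMSO Input, -0.80 [-0.95, -0.65]. Only TOP2A, the mitotic topoisomerase gene, was called lower of 7 tested, a share below that of all nearest genes. On TMM factors TOP2A and KIF14 were called lower (28.6%), a share above the 22.7% of all nearest genes. TOP2A had 10 in MPS1i Input against 52 in DMSO Input. Near p53 targets the sum was 285 in MPS1i Input against 208 in DMSO Input, 0.85 [0.59, 1.12], and POLH, a translesion polymerase gene, was called higher of 2 tested. Near housekeeping genes it was 177 in MPS1i Input against 307 in DMSO Input, -0.40 [-0.67, -0.13]. POLR2A, a gene of an RNA polymerase II subunit, was called lower of 3 tested, with an AluS ratio of -1.91 [-2.75, -1.14] beside 2.16 over all its regions. Assigning regions by the annotated gene on their strand, a choice made after the values were seen, gave 1.51 and -1.45 in J2 and 1.44 and -0.83 in Input for the interferon and the mitosis lists.

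Outside the lists, the nearest genes highest in J2 included DUSP4, a MAP kinase phosphatase gene (100 counts in MPS1i J2 against 11 in DMSO J2), SLC25A25, a mitochondrial carrier gene (82 in MPS1i J2 against 9 in DMSO J2), and the autophagy receptor gene SQSTM1 (126 in MPS1i J2 against 21 in DMSO J2). SQSTM1 over all its regions stood at -0.41, against 3.13 for its AluS regions alone. Among the lowest were FBXL20, an F-box protein gene (4 in MPS1i J2 against 91 in DMSO J2), and RPA1, a single-strand DNA-binding protein gene (3 in MPS1i J2 against 60 in DMSO J2). FUBP1, a DNA- and RNA-binding protein gene, had 15 in MPS1i J2 against 158 in DMSO J2, and the RNA helicase gene DDX6 had 9 in MPS1i J2 against 108 in DMSO J2. DDX6 over all its regions was at -0.08, while its AluS regions were at -3.04 [-4.20, -2.06]. In Input the lowest included SORT1, a sorting receptor gene (1 in MPS1i Input against 57 in DMSO Input), SETD2, a histone methyltransferase gene (4 in MPS1i Input against 53 in DMSO Input), and DTL, a gene of replication control (15 in MPS1i Input against 122 in DMSO Input).

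J2 enrichment, the ratio of J2 over Input, was taken from regions present in both tables. Regions were paired when they overlapped by at least 90% of each on the same strand, which left 159765 pairs and 6236 AluS pairs. The AluS sum over Input was -0.09 [-0.11, -0.07] on the log2 scale in MPS1i and 0.20 [0.18, 0.22] in DMSO, and leaving out mitochondrial counts turned the DMSO value to -0.19. Without the pairs sharing an exon base, 6173 remained and the values were 0.55 [0.52, 0.57] in MPS1i and 0.58 [0.56, 0.60] in DMSO. The sign of the MPS1i value thus rested on the few pairs sharing an exon base. Regions with no repeat name, counted the same way, stood at 0.08 in MPS1i and 0.11 in DMSO. TMM factors between J2 and Input shift these values by -0.11 in MPS1i and -0.12 in DMSO, which makes those of regions with no repeat name negative and leaves those of AluS without exon bases positive. AluS was thus higher than these by 0.47 [0.44, 0.49] in MPS1i and by 0.47 [0.45, 0.49] in DMSO, a difference that no scaling of the libraries changes. The most-read AluS pair, the chromosome 8 region named above, held 8.44% of their J2 counts in MPS1i and 13.9% in DMSO, and without it the difference was 0.40 [0.38, 0.43] in MPS1i and 0.35 [0.32, 0.37] in DMSO.

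AluS pairs were more enriched by J2 than regions with no repeat name at each place. Outside genes the AluS value was 0.92 in MPS1i and 1.22 in DMSO, higher than regions with no repeat name by 0.63 [0.58, 0.68] in MPS1i and 0.73 [0.68, 0.78] in DMSO. The chromosome 8 pair held 22.8% of these J2 counts in MPS1i and 45.2% in DMSO, and without it the AluS value was 0.78 in MPS1i and 0.87 in DMSO, higher than those regions by 0.50 [0.44, 0.55] and 0.38 [0.32, 0.43]. On gene strands it was 0.52 in MPS1i and 0.57 in DMSO, and on opposite strands -0.07 in MPS1i and -0.26 in DMSO, where regions with no repeat name stood at -0.41 in MPS1i and -0.71 in DMSO. Without the most-read AluS pair of that place the opposite-strand values were -0.28 in MPS1i and -0.45 in DMSO. AluJ pairs without an exon base had 0.45 in MPS1i and 0.53 in DMSO, and AluY pairs -0.03 in MPS1i and 0.49 in DMSO. Among subfamilies with over 1000 J2 counts in either library, AluSq2 had the highest value, 1.20 [1.14, 1.25] in MPS1i and 1.41 [1.36, 1.46] in DMSO, or 1.10 in either treatment without the chromosome 8 pair. AluSz without exon bases had 0.19 in MPS1i and 0.33 in DMSO, but -1.20 in MPS1i and -0.64 in DMSO with them. The NQO1 pair alone held 18652 of the 23041 Input counts of all AluSz pairs in MPS1i, and 17502 of 23910 in DMSO.

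Distances were taken to the nearest Alu region on the other strand, among regions counted in J2 or Input that carry only Alu, FLAM or FRAM names. Repeat names follow the region's own strand, so regions with no repeat name can hold an inverted copy. Inverted copies within the same transcript were not searched for. J2 enrichment of AluS was highest within 500 bp of such an Alu region, as the plot by distance shows. There it was 1.16 [1.09, 1.23] in MPS1i and 1.40 [1.35, 1.46] in DMSO, over 545 pairs without an exon base. The chromosome 8 pair held 46.1% of the J2 counts of this class in MPS1i and 58.9% in DMSO, and without it the values were 0.92 [0.83, 1.01] in MPS1i and 0.97 [0.90, 1.05] in DMSO. Where the Alu on the other strand overlapped it was 0.53 in MPS1i and 0.82 in DMSO, from 501 to 2000 bp 0.06, negative on TMM factors, and 0.13, and beyond 2000 bp 0.52 and 0.38. Regions with no repeat name at the same distances had 0.44, 0.32, -0.12 and 0.02 in MPS1i and 0.68, 0.37, -0.26 and 0.05 in DMSO, in the order just given. AluS was higher than these within 500 bp by 0.72 [0.65, 0.79] in MPS1i and by 0.73 [0.67, 0.78] in DMSO, or by 0.48 [0.39, 0.57] in MPS1i and 0.29 [0.22, 0.37] in DMSO without that pair. Beyond 2000 bp it was higher by 0.50 [0.47, 0.54] in MPS1i and 0.33 [0.31, 0.36] in DMSO. Without the most-read pair of that class this was 0.38 [0.34, 0.42] in MPS1i and 0.31 [0.28, 0.34] in DMSO. In DMSO, with those pairs left out, the difference from regions with no repeat name was thus not larger within 500 bp than beyond 2000 bp. Where the Alus overlapped, the difference from these regions in MPS1i was 0.21 [0.13, 0.30], or -0.07 [-0.16, 0.02] without the most-read pair of that class, and from 501 to 2000 bp it was 0.18 [0.11, 0.25], or 0.00 [-0.07, 0.07] without its most-read pair.

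The J2 ratio of MPS1i over DMSO outside genes was higher in each longer class of this distance. It was -0.44 for AluS regions overlapping an opposite Alu, -0.13 up to 500 bp, 0.19 from 501 to 2000 bp and 0.75 beyond 2000 bp. On gene strands, which hold most AluS counts, it was not so ordered, with -0.36, -0.43, -0.29 and -0.57 over the same classes, and on opposite strands the values were -0.02, -0.13, 0.16 and 0.51. Outside genes, regions with no repeat name had 0.17, 0.23, 0.50 and 0.91, so the order was shared there and AluS lay lower at each distance. The chromosome 8 region named above held 29.6% of the counts in the class up to 500 bp, and the value without it was 0.15. Leaving out the most-read region of the overlapping class gave -0.25. On TMM factors, which add 0.34, the class up to 500 bp outside genes turns positive, at 0.20. So does the gene-strand class from 501 to 2000 bp, at 0.05. On opposite strands the overlapping class and that up to 500 bp turn positive too, at 0.32 and 0.21.

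**Figure D5:**
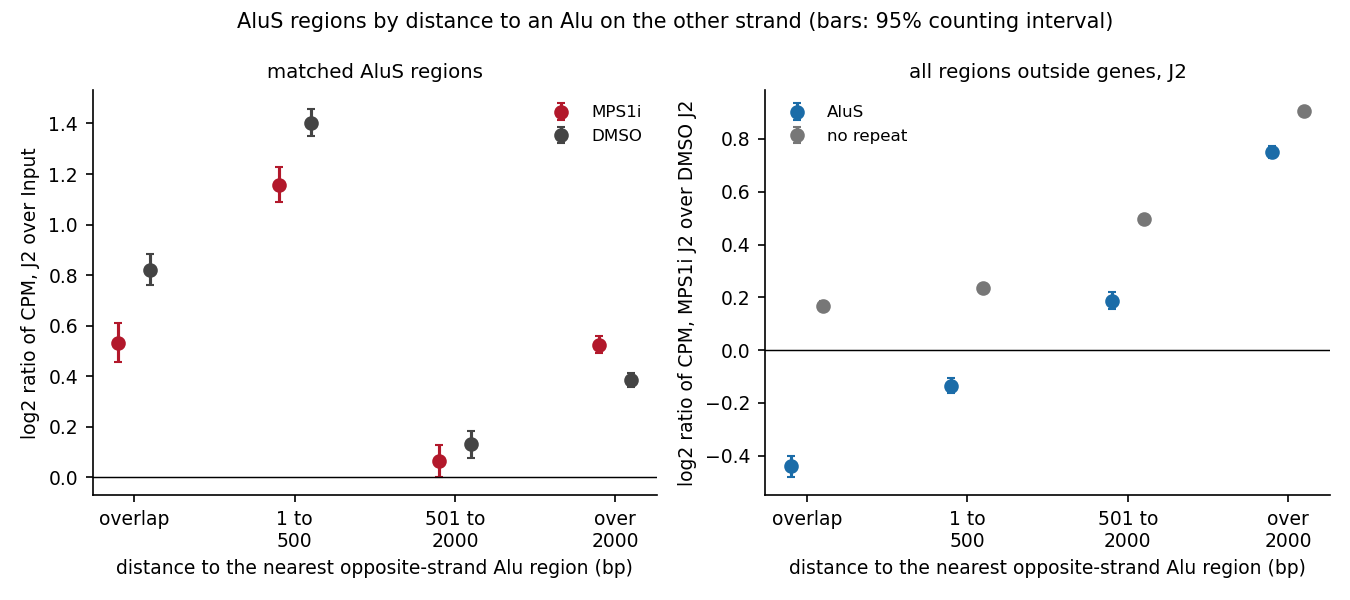
Left, the log2 ratio of CPM, J2 over Input, of matched AluS regions without an exon base, MPS1i beside DMSO. Right, the log2 ratio of CPM, MPS1i J2 over DMSO J2, of AluS regions and regions with no repeat name outside genes. Both are set against the distance in bp to the nearest counted Alu region on the other strand, with bars for the 95% counting interval. Enrichment peaks up to 500 bp in both treatments, at 0.92 in MPS1i and 0.97 in DMSO when the chromosome 8 pair is left out. Regions with no repeat name, not drawn on the left, also peak there. On the library sum the right panel runs from -0.44 to 0.75 for AluS, where TMM factors turn the class up to 500 bp positive.

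Of single AluS pairs, 163 in MPS1i and 243 in DMSO had at least 50 counts over J2 and Input. J2 was called higher for 64 of them in MPS1i (39.3%), against 24.0% of all matched regions, and lower for 27 (16.6%), against 17.0%. In DMSO it was called higher for 95 (39.1%), against 23.6% of all, and lower for 32 (13.2%), against 17.4%.

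The change of J2 enrichment, J2 over Input in MPS1i divided by J2 over Input in DMSO, was -0.33 [-0.34, -0.32] for all AluS regions, over 22049464 bp of J2 regions and 11292666 bp of Input regions. With the planned TMM factors between J2 and Input it was -0.33 [-0.34, -0.31], and without mitochondrial counts -0.25. The J2 and Input TMM factors of MPS1i over DMSO, tried after seeing the data, together shift every such change by 0.44. With these it was 0.11 [0.09, 0.12], so its direction depends on which TMM factors are used. Over the pairs without an exon base it was -0.034 [-0.067, -0.0012] on the library sum and 0.41 with those factors, and on the library sum without the chromosome 8 pair it was 0.030 [-0.0043, 0.064]. Of 207 AluS pairs with enough counts, 24 were called higher (11.6%), against 13.6% of all matched regions, and 25 lower (12.1%), against 8.84%. With those factors the split was 45 higher and 8 lower. They shift every matched region alike, and the matching shares of all matched regions are not given here, so this split shows nothing particular to AluS. The median was -0.01 for AluS pairs and 0.11 for all. As examples chosen after their values were seen, an AluSx pair in IMMP1L, a mitochondrial peptidase gene (chr11:31444605-31445495, -), had 115 J2 and 19 Input counts in MPS1i against 191 J2 and 97 Input counts in DMSO, a change of 1.74. An AluSx pair in RPH3AL (chr17:325142-326622, -) had 29 J2 and 60 Input counts in MPS1i against 224 J2 and 171 Input counts in DMSO, a change of -1.27.

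By place, the change without exon bases was -0.05 on gene strands, 0.19 [0.11, 0.27] on opposite strands and -0.30 [-0.37, -0.24] outside genes, where it was -0.09 [-0.16, -0.01] without the chromosome 8 pair. Regions with no repeat name had -0.05, 0.29 and -0.21 at the same places, and the shift of 0.44 would make all 6 values positive. By distance it was -0.29 where an opposite Alu overlapped, -0.25 up to 500 bp, -0.07 from 501 to 2000 bp and 0.14 [0.10, 0.18] beyond. Without the most-read pair of each class the values were -0.38, -0.05 [-0.17, 0.06], -0.12 and 0.05, so the order of the first 3 classes rested on single pairs. The shift of 0.44 turns the signs of the first 3 classes.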

How the data were processed

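The authors deposited 2 tables of whole-number read counts per stranded region, 1 for the J2 and 1 for the Input libraries, with HOMER's annotation and the repeat names on each region's strand, per the file headers. Trim Galore, Trimmomatic, cutadapt, STAR, featureCounts, HOMER and GRCh38 (hg38) are named without roles, per the submitters' processing notes. How regions were called, and how reads mapping to several copies of a repeat were counted, is not given in the sources used here. A read shared by several copies, or one that reaches a region's end from an exon, would move the values.

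AluS regions were those whose every repeat name starts with AluS. Counts were summed and scaled to the library sum (CPM), with exact (Clopper-Pearson) 95% intervals of the ratio of 2 counts. A region or gene was called at 50 counts or more over both libraries, a ratio of 2-fold or more and an interval excluding 1. The change of J2 enrichment used a delta-method interval on counts plus 0.5, with at least 50 J2 and 20 Input counts. A count of 0 was given a floor of 3. The depth, 4844956 to 9793355 counts a library, leaves nearly all AluS regions below the minimum of 50. The rules were checked on simulated counts. Place came from GENCODE release 29. Region pairs needed 90% reciprocal overlap (bedtools 2.31.1). TMM factors came from edgeR 4.0.16 in R 4.3.3, and the remainder was done in Python 3.11.15 with pandas 2.3.3, numpy 2.4.6, scipy 1.17.1 and matplotlib 3.10.9.

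Named were all subfamilies with at least 1000 counts over the 4 libraries, all classes, per table the 5 called regions highest and the 5 lowest by the interval bound nearest to 1 and the 5 most read, and listed genes called. Of the 10 nearest genes highest and the 10 lowest per table, some are printed. Listed genes that were not called are named as examples chosen after their values were seen. The members and lists were chosen with earlier results of these data known. Sequences of single copies and 1 listed gene are not reported here. Leaving out regions sharing an exon base, the most-read pair of a place, class or subfamily or the most-read gene of a list, and calling listed genes on TMM factors, were added after the data were seen.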

Additional observations from a re-analysis of the deposited data

Results flagged for a closer look

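The AluS sum stood apart because its ratio was -0.30 in J2 and 0.037 in Input, with intervals on different sides of 0. Among subfamilies the same held for AluSc, at -0.31 in J2 and 0.28 in Input, for AluSx4, at -0.27 in J2 and 0.23 in Input, and for AluSz, at -0.32 in J2 and 0.20 in Input. The difference between the J2 and the Input ratio was not tested, since each rests on 1 library per group. Without regions sharing an exon base the Input values of AluSc and AluSz were -0.18 and -0.04, on the same side as J2, while AluSx4 stayed at 0.23. The regions left out included those of TXNRD1 and NQO1 named above, which held a large part of the Input counts of AluSc and AluSz. On TMM factors the J2 values of AluSc, AluSx4 and AluSz were 0.03, 0.07 and 0.02.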

How the results depend on the processing

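No paired analysis was possible because each group holds 1 library and no result comes from a test, and for the same reason no replicate was left out. Of 59 recomputed values, 18 stayed within their interval or within 1.5 times a count, 30 moved and 11 changed direction. For the sums and enrichments of AluS the cause of each move was not tested.

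TMM factors gave 0.043 for the AluS sum in J2, 211 regions higher in J2, -0.064 for the sum in Input, and -0.20 in MPS1i and 0.079 in DMSO for J2 over Input of matched regions. The change of enrichment was -0.33 on the planned TMM factors between J2 and Input. TMM factors of each table, tried after seeing the data, turned it to 0.11. Leaving mitochondrial counts out of the library sum gave -0.039 for the sum in Input, -0.25 for the change of enrichment, and -0.40 in MPS1i and -0.19 in DMSO for J2 over Input. Taking every region with at least 1 AluS name gave -0.054 in J2, 0.071 in Input, -0.12 for the change, and 0.12 in MPS1i and -0.020 in DMSO for J2 over Input. It also gave 1010 regions higher and 1457 lower of 6848 in J2, and 577 higher and 461 lower of 3622 in Input. The matching shares of all regions are not given for this setting or for those below. The splits under these settings therefore show nothing particular to AluS.

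Regions of at most 400 bp gave -0.24 in J2, 0.12 in Input, -0.37 for the change, and -1.28 in MPS1i and -0.88 in DMSO for J2 over Input, with 24 higher and 102 lower of 333 in J2 and 21 higher and 12 lower of 120 in Input, where fewer regions were tested. Capping each region at 1 read per library gave -0.25 in J2, -0.0086 in Input and -0.24 for the change. A minimum of 20 counts tested more regions and gave 362 higher and 1684 lower in J2 and 276 higher and 325 lower in Input. Without regions sharing an exon base, an alternative chosen after seeing the data, the values were -0.34 in J2, -0.090 in Input, -0.25 for the change, and 0.55 in MPS1i and 0.58 in DMSO for J2 over Input. Without the 5 most-read regions, also chosen after seeing the data, the Input sum was -0.065.

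The 1 library per group, the unstated counting of reads that map to several copies, and the few regions with 50 counts limit what these values can show. Libraries thinned to equal depth gave 96 regions higher and 436 lower in J2 and 63 higher and 73 lower in Input.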

Other observations

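AluS J2 ratios differed by chromosome, between -0.62 on chromosome 19 and 0.20 on chromosome 3. Chromosome 19 had 2453 CPM in MPS1i J2 against 3775 CPM in DMSO J2, and chromosome 17, at -0.61, had 2456 CPM against 3749 CPM. Chromosome 3 had 2286 CPM in MPS1i J2 against 1992 CPM in DMSO J2, and chromosomes 4 and X stood at 0.11 and 0.10. Of 24 chromosomes, 19 lay below 0 with their interval and 3 above on the library sum, whereas on TMM factors 9 lay below and 10 above. The copy number of these chromosomes in the line was not analysed here.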
